A study of Homo sapiens with 24 samples.

Results

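The collagen genes are the rows of the deposited count table whose symbol has the form COL, a number, A and a number, which gave 44 rows of 60366. Their RNA was measured in 24 poly(A) libraries of BXPC3, MIAPACA2 and PSN1, established human lines from pancreatic adenocarcinoma that the series describes as MTAP-deleted, while the genotype field reads WT. Each line had 4 vehicle (DMSO) and 4 AM-9747 libraries at day 6, so there were 6 groups. The dose was 100 nM in BXPC3 and PSN1 and 150 nM in MIAPACA2, so in MIAPACA2 the dose and the line cannot be told apart. AM-9747 blocks PRMT5, which methylates arginines in proteins, and acts together with MTA, a metabolite that builds up in cells lacking the enzyme MTAP. The study asked which genes change their expression when PRMT5 is inhibited in such cells. Each line comes from a single tumour, and nothing in the labels says that the libraries of a group came from separate cultures, so the p-values measure the spread between these libraries, which may be technical.

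A collagen is a triple helix wound from 3 chains. Some types combine partner chains from different genes, and others use the chain of a single gene. COL1A1 and COL1A2 make type I, COL5A1 to COL5A3 make type V, and COL6A1, COL6A2 and COL6A3 make type VI. The fibrillar types (I, II, III, V, XI and others) form the rope-like fibres of scar and stroma. Type IV makes the network of basement membranes, type VII the fibrils that anchor epithelium to stroma, type VI the beaded filaments around cells, and FACIT collagens sit on the surface of fibrils. Type XVII and type XIII span the cell membrane, and type XVIII of the multiplexin class carries the fragment endostatin. In pancreatic cancer the dense stroma is known to be made largely by fibroblasts and stellate cells, and the tumour cells add collagens of their own.

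The libraries held between 22.4 and 45.6 M counts, and the collagen rows took 0.179 to 0.926% of them. Mitochondrial RNA took 4.34 to 10.2% of counts in BXPC3 and 6.58 to 20.5% in MIAPACA2. In PSN1 it took 17.4 to 43.8% in vehicle and 7.98 to 31.1% in AM-9747. The PSN1 vehicle libraries also had the widest range of detected genes, 16646 to 24738. The epithelial markers EPCAM (120 CPM), CDH1 (606 CPM) and KRT19 (1780 CPM) were high in vehicle BXPC3. In vehicle MIAPACA2, EPCAM (0.0427 CPM), KRT7 (0.0938 CPM) and CDH1 (0.127 CPM) were near 0, while KRT8 (665 CPM), KRT18 (711 CPM) and VIM (8640 CPM) were high, and PSN1 had CDH1 at 0.629 CPM beside KRT8 at 422 CPM. Of the 9 fibroblast and stellate cell markers, DPT had no count in any line, and the mean of DCN was 0.0565 CPM or less in each vehicle group. Others of that list were present in vehicle, with FBLN1 at 144 CPM and ACTA2 at 13 CPM in BXPC3, FBLN1 at 27.9 CPM and ACTA2 at 18.1 CPM in MIAPACA2, and PDGFRA at 19.8 CPM and PDGFRB at 12.8 CPM in PSN1. Of the 4 leukocyte markers, PTPRC had a mean of 0.164 CPM or less in each group, while CD68 stood at 33.2, 7.13 and 5.43 CPM and LYZ at 0.613, 1.26 and 6.43 CPM in vehicle BXPC3, MIAPACA2 and PSN1.

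Levels are given as CPM (counts per 1 M counts) scaled by TMM, which corrects for differences in the make-up of libraries, and ± is the SD over the 4 libraries of a group. A collagen was called expressed when its mean was 1 CPM or more in some group. By that rule 33 of the 44 were expressed. BXPC3 had 21, MIAPACA2 21 and PSN1 28, of which 12 were shared by the 3 lines, 13 were found in 2 lines and 8 in 1 line. The 11 not expressed were COL2A1, COL4A3, COL6A5, COL6A6, COL9A1, COL11A1, COL19A1, COL21A1, COL23A1, COL24A1 and COL25A1. By class, 8 of 11 fibrillar, 5 of 6 basement membrane, 3 of 5 beaded filament, 7 of 10 FACIT and 2 of 4 transmembrane genes were expressed, as were both multiplexins, all 3 short-chain network genes and COL7A1. A count of 0 in a library still allows up to 3 counts, which is 0.0634 to 0.172 CPM depending on the library, and this covers counting error only.

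**Figure D1:**
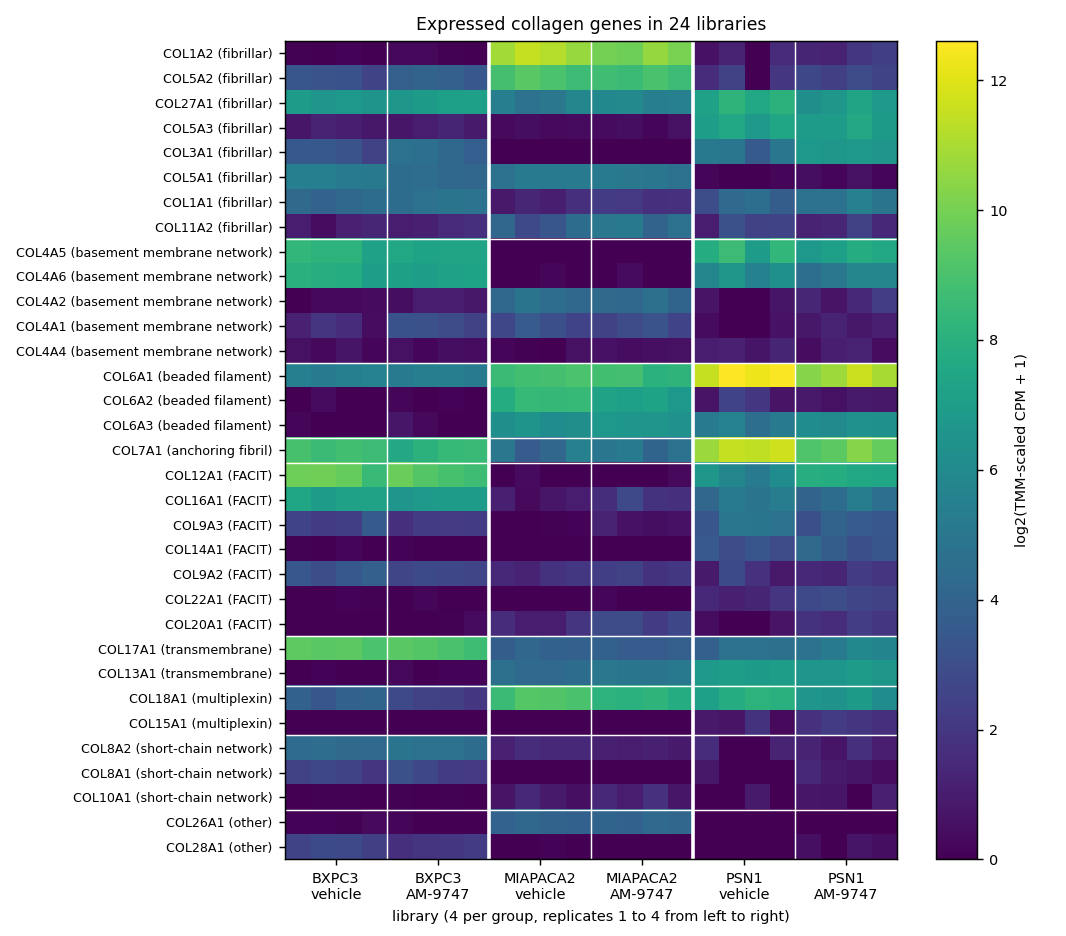
Levels of the 33 expressed collagen genes (rows, grouped by structural class) in the 24 libraries (columns, replicates 1 to 4 from left to right in each group), as log2(TMM-scaled CPM + 1). Whole rows change between lines, such as COL1A2 at 2160 CPM in vehicle MIAPACA2 and 0.0337 CPM in vehicle BXPC3, while the vehicle and AM-9747 columns of a line look alike for most rows.

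The 3 lines carried different collagens in vehicle. Per kilobase of exon, which allows genes of different length to be compared, COL17A1 led in vehicle BXPC3 with 91.4 CPM per kb, followed by COL12A1 with 60.5 and COL7A1 with 38.9. In vehicle MIAPACA2 the order was COL1A2 with 194 CPM per kb, COL6A1 with 85.5, COL5A2 with 68.9, COL18A1 with 61 and COL6A2 with 58.2. In vehicle PSN1, COL6A1 stood at 933 CPM per kb and COL7A1 at 237, and the next gene, COL18A1, was at 26.4. COL6A1 alone took 55.9% of the collagen counts of vehicle PSN1, and COL1A2 took 51% of those of vehicle MIAPACA2. By class, the FACIT genes held 33.2% and the transmembrane genes 23.8% of collagen CPM in vehicle BXPC3, the fibrillar genes 64.7% in vehicle MIAPACA2, and the beaded filament genes 55.8% in vehicle PSN1.

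Between the vehicle groups of the lines most collagens differed. In the fit of the 12 vehicle libraries, 33 collagen rows passed the low-count filter. At an adjusted p below 0.05 (edgeR's quasi-likelihood test, Benjamini-Hochberg), 31 of them differed between BXPC3 and MIAPACA2, where 48.4% of all 20067 genes tested differed. Of the 31, 18 were higher in BXPC3 (26.4% of all genes) and 13 lower (22.1%). Between BXPC3 and PSN1, 28 differed, against 60.7% of all genes, with 13 higher in BXPC3 (31.3% of all genes) and 15 lower (29.4%). Between MIAPACA2 and PSN1, 29 differed, against 50.9% of all genes, with 12 higher in MIAPACA2 (24.2% of all genes) and 17 lower (26.7%). These rows passed the filter because at least 1 line held them at a sufficient level, so a high share of differences is built into that choice. The 3 contrasts share vehicle libraries, so they are not independent.

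Partner chains of the same collagen were often held apart between lines. For type I, COL1A2 stood at 1860, 2850, 2350 and 1600 CPM in the 4 vehicle MIAPACA2 libraries, while COL1A1 stood at 0.81, 1.55, 1.08 and 2.24 CPM in the same libraries. On the per-kilobase scale, COL1A2 was 630 to 2020 times COL1A1 there. BXPC3 had the reverse, with COL1A1 at 19.4, 14.7, 18.4 and 20.6 CPM and COL1A2 at 0.0861 CPM or less in each vehicle library. Vehicle PSN1 also held COL1A1 (15 ± 6.85 CPM) with little COL1A2 (0.919 ± 0.811 CPM). COL1A2 was thus higher in vehicle MIAPACA2 than in vehicle PSN1 by 11.12 ± 0.8 (SE) on the log2 scale (adjusted p = 1.33e-07), and COL1A1 was lower by -3.41 ± 0.41 (adjusted p = 1.76e-05).

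For type VI, vehicle PSN1 held COL6A1 at 2850, 6240, 4940 and 5920 CPM and COL6A2 at 0.593, 4.87, 2.93 and 0.598 CPM. Per kilobase this is 933 for COL6A1, 0.417 for COL6A2 and 1.8 for COL6A3. Vehicle BXPC3 held COL6A1 at 42.1 ± 5 CPM with COL6A2 (0.069 CPM) and COL6A3 (0.0431 CPM) near 0. MIAPACA2 was the line with all 3 chains above 1 CPM per kb, at 85.5, 58.2 and 3.99 for COL6A1, COL6A2 and COL6A3. COL6A2 was higher in vehicle MIAPACA2 than in vehicle PSN1 by 7.14 ± 0.82 on the log2 scale (adjusted p = 1.06e-05), and COL6A1 was lower by -3.47 ± 0.27 (adjusted p = 2.36e-07). COL6A1 and COL6A2 lie on the same strand of chromosome 21, 93 kb apart, and COL18A1 lies 468 kb upstream of COL6A1.

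For type V, the lines held different chains. COL5A1 stood at 38.4 ± 4.48 CPM in vehicle BXPC3 and 33.2 ± 5.7 CPM in vehicle MIAPACA2, a difference that did not pass (log2 0.16 ± 0.3, adjusted p = 0.685), and at 0.0634 ± 0.0741 CPM in vehicle PSN1. COL5A2 was 514 ± 114 CPM in vehicle MIAPACA2 against 7.68 ± 1.88 in BXPC3 and 2.35 ± 1.83 in PSN1. COL5A3 was the chain of PSN1, at 151 ± 35.5 CPM against 0.946 ± 0.27 in BXPC3 and 0.293 ± 0.0727 in MIAPACA2. COL3A1, the single chain of type III and a neighbour of COL5A2 (tail to tail, 19.1 kb apart on chromosome 2), did not follow COL5A2. It had no count in any vehicle MIAPACA2 library, and stood at 8.32 ± 2.67 CPM in vehicle BXPC3 and 25.9 ± 10.2 CPM in vehicle PSN1.

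**Figure D2:**
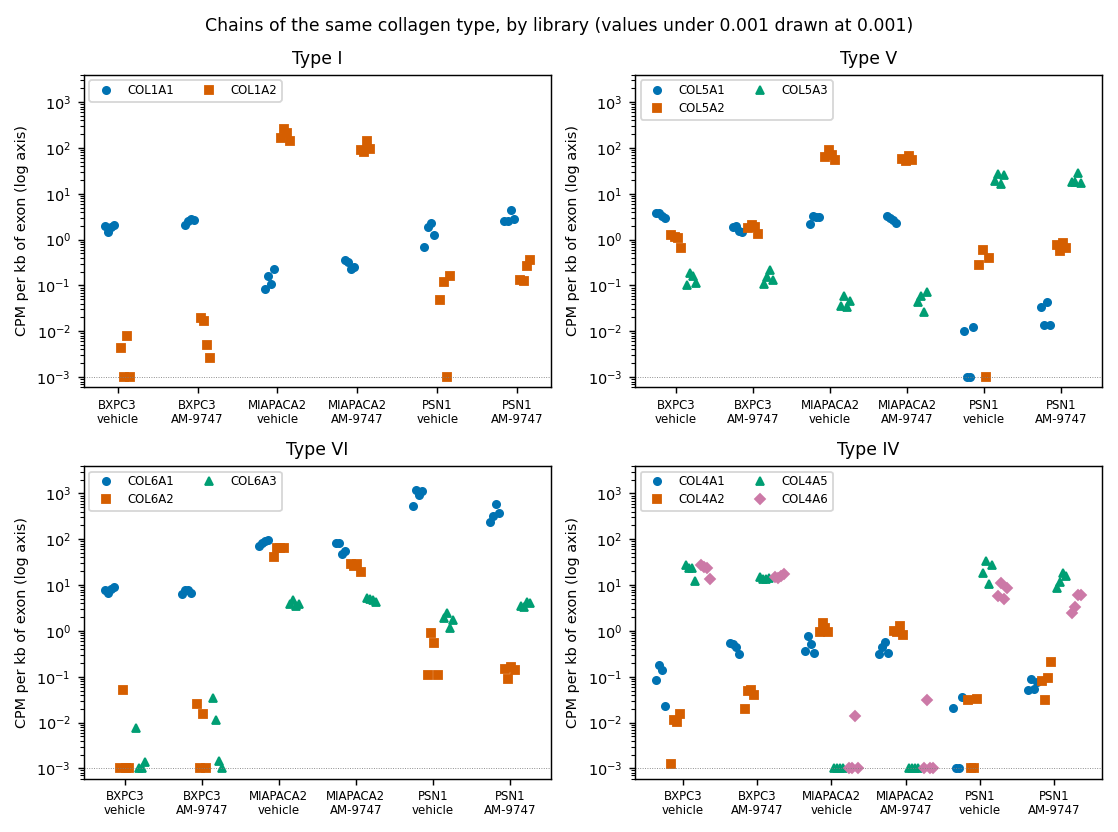
CPM per kilobase of exon (log axis) of chains of the same collagen type, 1 point per library, in the 6 groups. COL1A2 lies far above COL1A1 in MIAPACA2 and COL6A1 far above COL6A2 in PSN1 and BXPC3, and COL4A5 and COL4A6 at like levels in BXPC3, where they stood at 21.8 and 22.5 in vehicle.

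The type IV genes lie in head-to-head pairs, and the promoter windows of 2 pairs are shown because the partners of each pair shared a pattern across lines or moved the same way with AM-9747. Sequences are from RefSeq (GRCh38.p14), 250 bases before and 50 bases from each start, 5′ to 3′ on the strand of the gene. Capitals mark the letters CCAAT (or ATTGG, its reverse complement) and GGGCGG (or CCGCCC). COL4A1 is read from the minus strand of chr13:110307108-110307407 and COL4A2 from the plus strand of chr13:110307034-110307333. COL4A6 is read from the minus strand of chrX:108439409-108439708 and COL4A5 from the plus strand of chrX:108439588-108439887.
COL4A1: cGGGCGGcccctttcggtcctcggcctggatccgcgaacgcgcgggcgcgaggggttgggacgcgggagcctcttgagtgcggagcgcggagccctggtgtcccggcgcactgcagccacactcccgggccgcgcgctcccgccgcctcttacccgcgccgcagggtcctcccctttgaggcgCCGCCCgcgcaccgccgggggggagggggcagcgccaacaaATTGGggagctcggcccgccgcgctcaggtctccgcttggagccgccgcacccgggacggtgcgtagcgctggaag
COL4A2: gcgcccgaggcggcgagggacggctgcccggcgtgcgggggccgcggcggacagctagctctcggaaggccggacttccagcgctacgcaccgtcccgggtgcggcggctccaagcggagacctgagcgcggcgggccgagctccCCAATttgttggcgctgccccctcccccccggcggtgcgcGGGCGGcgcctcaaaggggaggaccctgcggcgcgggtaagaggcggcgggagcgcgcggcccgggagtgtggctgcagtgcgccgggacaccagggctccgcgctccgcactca
COL4A6: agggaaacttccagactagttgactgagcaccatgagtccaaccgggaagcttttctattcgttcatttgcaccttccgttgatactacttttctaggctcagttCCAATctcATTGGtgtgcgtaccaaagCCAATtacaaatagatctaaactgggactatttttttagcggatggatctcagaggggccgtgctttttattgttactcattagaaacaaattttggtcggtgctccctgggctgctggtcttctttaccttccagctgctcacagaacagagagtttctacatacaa
COL4A5: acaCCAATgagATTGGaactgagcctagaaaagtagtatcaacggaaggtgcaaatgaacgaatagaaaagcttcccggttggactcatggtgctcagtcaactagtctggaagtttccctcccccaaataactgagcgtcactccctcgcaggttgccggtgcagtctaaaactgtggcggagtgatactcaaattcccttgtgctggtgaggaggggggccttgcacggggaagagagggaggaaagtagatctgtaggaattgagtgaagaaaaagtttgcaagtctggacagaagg

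The starts of COL4A1 and COL4A2 are 127 bases apart, and their windows share 226 bases with 32 CpG sites. The starts of COL4A6 and COL4A5 are 380 bases apart, and their windows share 121 bases with 3 CpG sites. The windows of COL4A1 and COL4A2 hold 45 CpG sites each, against 8 in COL4A5 and 7 in COL4A6, where the median over 35116 RefSeq windows was 14. CCAAT was found on either strand in each of these 4 windows, against 34.6% of all windows and 10 of the 32 collagens with a window, these 4 among them. The windows of a pair overlap, so its genes share sites and are not independent. COL4A1 and COL4A2 hold the same CCAAT, and the CCAAT sites of COL4A5 lie in COL4A6 too. The GGGCGG of COL4A2 likewise lies in COL4A1. GGGCGG was found in COL4A1 and COL4A2, against 45% of all windows and 18 of the 32 collagens, and TATAAA in none of the 4, against 11.5% of all windows and 5 of the 32. These are letter matches and not measured binding.

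COL4A5 and COL4A6 followed each other across the lines. In the 4 vehicle BXPC3 libraries COL4A5 stood at 323, 279, 283 and 148 CPM and COL4A6 at 257, 229, 223 and 127 CPM, and library 4 was the lowest for both. Per kilobase the ratio of COL4A5 to COL4A6 was 0.916 to 0.993 in vehicle BXPC3 and 2.1 to 3.24 in vehicle PSN1. In MIAPACA2, COL4A5 had no count in any of the 8 libraries, and COL4A6 was at 0 in 6 of them and at 0.127 and 0.284 CPM in the others. COL4A1 and COL4A2, the chains of common type IV collagen, were highest in MIAPACA2, at 7.25 ± 2.86 and 21.5 ± 4.76 CPM in vehicle. Per kilobase COL4A1 was 0.349 to 0.519 of COL4A2 there. In vehicle BXPC3 COL4A1 was at 1.59 ± 1.02 CPM and COL4A2 at 0.185 ± 0.114 CPM, and both genes had 0 counts in 2 of the 4 vehicle PSN1 libraries.

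Collagens of other classes also differed in level between the vehicle lines. COL17A1, the hemidesmosome collagen of epithelia, was 646 ± 86.4 CPM in vehicle BXPC3, 14.3 ± 1.99 in MIAPACA2 and 22.2 ± 5.71 in PSN1. COL12A1, a FACIT collagen, was 755 ± 260 CPM in vehicle BXPC3 and 64.8 ± 27.3 in PSN1, and had counts in 1 of 4 vehicle MIAPACA2 libraries, at 0.305 CPM. COL7A1 was 2630 ± 705 CPM in vehicle PSN1, 431 ± 48.4 in BXPC3 and 25.7 ± 14.6 in MIAPACA2, and each pair of lines differed (largest adjusted p 6.63e-05). COL13A1 reached 122 ± 8.72 CPM in vehicle PSN1 and 20.9 ± 2.7 in MIAPACA2, and 0.0829 CPM or less in each vehicle BXPC3 library. COL26A1 (15.3 ± 1.64 CPM in vehicle) was expressed in MIAPACA2, COL28A1 (5.29 ± 0.837 CPM) in BXPC3, and COL14A1 (8.18 ± 2.15 CPM) in PSN1, in each case with means under 1 CPM in the other lines. COL27A1 was above 24 CPM in all 12 vehicle libraries, at 102 ± 11.6 CPM in BXPC3, 37.5 ± 12.7 in MIAPACA2 and 224 ± 73.4 in PSN1.

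With AM-9747, the summed level of the collagen rows was 2164 ± 213 CPM in BXPC3 against 2729 ± 505 in vehicle, with overlapping groups. In MIAPACA2 it was 2668 ± 297 against 4245 ± 753 CPM, and the groups did not overlap (2404 to 3083 against 3590 to 5183). Without TMM scaling the MIAPACA2 groups did overlap, as the collagen rows took 0.291 to 0.401% of counts with AM-9747 and 0.395 to 0.566% in vehicle. In PSN1 the summed level was 4051 ± 1250 against 8917 ± 2450 CPM, with an overlap of 1 library each way (2896 to 5807 against 5550 to 10750). In bulk RNA fewer cells with a collagen and less of its RNA per cell cannot be told apart.

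**Figure D3:**
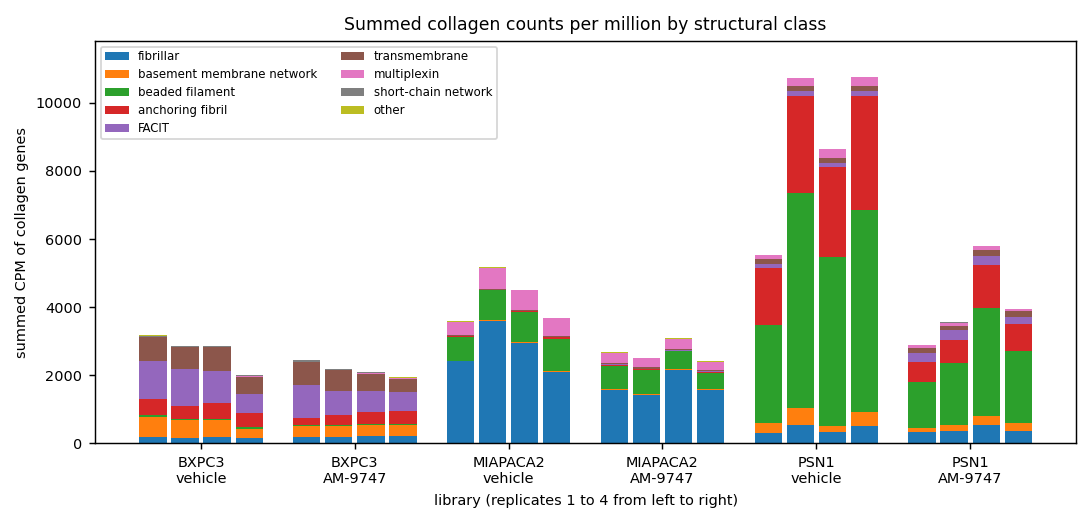
Summed TMM-scaled CPM of the collagen genes in each of the 24 libraries, stacked by structural class. The fibrillar class sums to 2760 CPM in vehicle MIAPACA2 and 1680 with AM-9747, and the beaded filament class to 5020 CPM in vehicle PSN1 and 2110 with AM-9747.

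The response was tested in each line on its own, 4 libraries against 4, by edgeR's quasi-likelihood test. In BXPC3, 25 of the 44 rows passed the low-count filter, and 11 of them changed (44%), where 29.2% of the 17638 genes tested did. Of these, 6 rose (13.2% of all genes rose) and 5 fell (16% of all genes fell). In MIAPACA2, 7 of 24 tested changed (29.2%, against 13.6% of 18090 genes), 4 up (6.73% of all genes) and 3 down (6.84%). In PSN1, 7 of 31 tested changed (22.6%, against 10.7% of 18287 genes), 4 up (4.52% of all genes) and 3 down (6.17%). The collagens tested had a median log2 fold change of -0.13 in BXPC3 (0 over all genes), 0.2 in MIAPACA2 (0 over all genes) and 0.59 in PSN1 (0.03 over all genes). A joint fit of the 6 groups, which gives all lines 1 spread, called 4, 3 and 13 collagens in BXPC3, MIAPACA2 and PSN1, where it called 10.5%, 5.03% and 25.2% of all 22883 genes. Without TMM scaling the median of all genes became 0.15 in MIAPACA2 and 0.37 in PSN1 on the log2 scale, and the split became 6 higher and 2 lower in MIAPACA2 and 6 higher and 1 lower in PSN1. Over all genes that split was 10.6% higher and 3.52% lower in MIAPACA2, and 6.63% higher and 2.96% lower in PSN1.

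**Figure D4:**
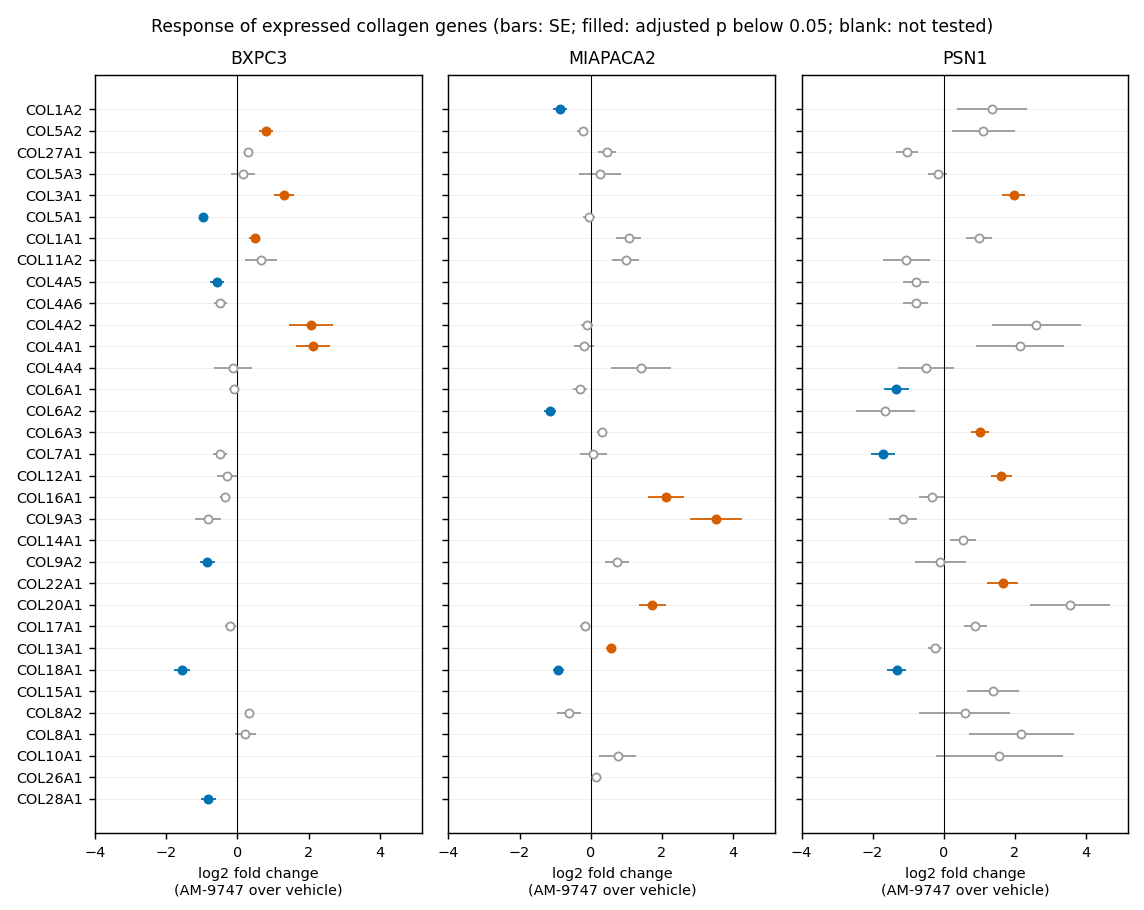
Log2 fold change (AM-9747 over vehicle) with its SE for the expressed collagens tested in each line, ordered by class, with filled points at adjusted p below 0.05 and blank rows for genes not tested. COL18A1 is the gene with a filled point in all 3 lines, at -1.57, -0.91 and -1.32.

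COL18A1, the chain of the basement membrane collagen XVIII, fell in all 3 lines. In BXPC3 its level was 14.1, 9.53, 13.9 and 15.5 CPM in vehicle and 5.81, 4.5, 4.18 and 2.97 CPM with AM-9747. In MIAPACA2 it was 383, 613, 577 and 506 CPM against 285, 265, 296 and 224 CPM, and in PSN1 it was 138, 221, 280 and 259 CPM against 97.4, 86.6, 117 and 70 CPM. In each line every treated library lay below every vehicle library. COL18A1 had a log2 fold change of -1.57 ± 0.23 in BXPC3 (2.98-fold lower, adjusted p = 0.000936), -0.91 ± 0.15 in MIAPACA2 (1.88-fold lower, adjusted p = 0.00351) and -1.32 ± 0.27 in PSN1 (2.49-fold lower, adjusted p = 0.0154). The responses did not differ between lines beyond the test's threshold (adjusted p = 0.342).

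The PSN1 value for COL18A1 moved with the choice of libraries. Its adjusted p was 0.0578 without vehicle replicate 4, 0.0673 without AM-9747 replicate 2 and 0.062 without AM-9747 replicate 4, and 0.0575 (log2 -0.94) without TMM scaling. With the mitochondrial share as a covariate it was 0.0542 (log2 -1.15). COL18A1 shares 1401 exonic bases with SLC19A1, the folate carrier gene on the other strand, and whether the authors' counting used the strand is not given in the sources used here. SLC19A1 fell too, from 8.92 to 3.43 CPM in BXPC3 (a log2 change of -1.35 ± 0.23, adjusted p = 0.00234), from 31.2 to 19.4 CPM in MIAPACA2 (log2 -0.64 ± 0.13, adjusted p = 0.0102) and from 29.2 to 16 CPM in PSN1 (log2 -0.89 ± 0.24, adjusted p = 0.0387). In vehicle BXPC3 both genes were at a like CPM, while in vehicle MIAPACA2 COL18A1 (520 CPM) stood far above SLC19A1, and the part of shared reads was not tested.

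The promoter window of COL18A1 is shown because the gene fell in all 3 lines, read from the plus strand of chr21:45404915-45405214 (RefSeq, GRCh38.p14) with GGGCGG or its reverse complement CCGCCC in capitals, 2 of which overlap.
COL18A1: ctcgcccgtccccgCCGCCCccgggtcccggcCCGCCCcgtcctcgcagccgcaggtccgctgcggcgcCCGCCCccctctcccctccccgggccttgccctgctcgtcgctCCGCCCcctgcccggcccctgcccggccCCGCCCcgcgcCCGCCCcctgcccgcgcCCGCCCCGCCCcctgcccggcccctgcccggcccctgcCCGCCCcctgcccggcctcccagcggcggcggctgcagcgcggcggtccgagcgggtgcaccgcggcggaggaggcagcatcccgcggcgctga
It held 9 such matches, 46 CpG sites and 86.7% G or C, and neither CCAAT nor TATAAA.

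COL3A1, the chain of type III collagen, rose in BXPC3 and PSN1. In BXPC3 it stood at 10.2, 10.2, 8.35 and 4.53 CPM in vehicle and 26.3, 23.2, 17.8 and 12.8 CPM with AM-9747. In PSN1 it stood at 33.1, 29.7, 10.8 and 29.9 CPM in vehicle and 103, 101, 114 and 97.8 CPM with AM-9747. The groups did not overlap in either line. The rise was 1.31 ± 0.28 on the log2 scale in BXPC3 (2.47-fold, adjusted p = 0.00642) and 1.97 ± 0.32 in PSN1 (3.93-fold, adjusted p = 0.00503). In MIAPACA2 COL3A1 had a count in 1 of 8 libraries, at 0.0223 CPM, and was not tested. In the same PSN1 libraries the fibroblast and stellate cell markers summed to 15.3 to 46.3 CPM in vehicle and 64.9 to 80.2 CPM with AM-9747, where none of 6 tested passed. In BXPC3 3 of 5 tested rose (PDGFRA, LUM and THY1, with a median log2 change of 1.01 over the 5). Of all genes, 13.2% rose in BXPC3, and 10.7% passed in PSN1. The sum of these markers in BXPC3 was 151 to 178 CPM in vehicle and 95.7 to 114 CPM with AM-9747. Most of it was FBLN1, which fell from 144 to 75.3 CPM. The part of these markers in the COL3A1 values was not tested.

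Each of the other fibrillar chains that were called passed in 1 line. The test of a difference between the lines did not pass for COL5A2 (adjusted p = 0.203), COL1A1 (adjusted p = 0.522) or COL11A1 (adjusted p = 0.283). COL5A1 fell in BXPC3, from 42.5, 41.8, 36.1 and 33.2 CPM to 21, 21.8, 17.4 and 16.7 CPM (a log2 change of -0.96 ± 0.13, adjusted p = 0.000661). In MIAPACA2 it was 33.2 ± 5.7 CPM in vehicle and 31.3 ± 4.74 with AM-9747 (log2 -0.04 ± 0.16, adjusted p = 0.903). The test of a difference over the 3 lines, which does not compare these 2 alone, passed (adjusted p = 0.00537). In PSN1 COL5A1 was near 0, at 0.0634 ± 0.0741 CPM in vehicle and 0.291 ± 0.165 with AM-9747. Its partner COL5A2 rose in BXPC3 from 9.33, 8.42, 7.97 and 4.99 CPM to 13.3, 15.4, 13.7 and 9.8 CPM (a log2 change of 0.81 ± 0.2, adjusted p = 0.0142), and in the joint fit this call was lost (adjusted p = 0.258). Per kilobase, COL5A2 was 0.225 to 0.331 of COL5A1 in vehicle BXPC3 and 0.881 to 1.18 of it with AM-9747. COL1A1 rose in BXPC3 from 18.3 ± 2.56 to 25 ± 3.02 CPM (a log2 change of 0.48 ± 0.15, adjusted p = 0.0398), but missed the threshold without any 1 of vehicle replicates 1, 2 and 3 and AM-9747 replicates 2, 3 and 4 (highest adjusted p 0.111) and in the joint fit (0.378). COL1A1 also lay higher with AM-9747 in the other lines without overlap, at log2 1.07 ± 0.36 in MIAPACA2 (adjusted p = 0.0717) and 1 ± 0.37 in PSN1 (adjusted p = 0.108), where the tests did not pass.

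COL1A2, the main collagen of MIAPACA2, fell there from 1860, 2850, 2350 and 1600 CPM to 1010, 910, 1570 and 1080 CPM. The groups were close but did not overlap, since the highest treated library (1570 CPM) lay just under the lowest vehicle library (1600 CPM). The log2 fold change was -0.87 ± 0.2 (1.83-fold lower, adjusted p = 0.0178). Leaving out vehicle replicate 3 (0.0512) or AM-9747 replicate 1 (0.0697), 2 (0.0553) or 4 (0.0592) took the adjusted p of COL1A2 past the threshold, as did no scaling (0.0529) and the joint fit (0.272). COL1A2 was the 1 fibrillar chain called in MIAPACA2. COL11A1, below 1 CPM in every group mean, rose in BXPC3 from 0.342 ± 0.0854 to 0.886 ± 0.192 CPM (a log2 change of 1.4 ± 0.35, adjusted p = 0.014), and without vehicle replicate 1 its adjusted p was 0.0514, without the low-count filter 0.0581, by voom 0.0534 and in the joint fit 0.504.

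Of the basement membrane chains, COL4A1 and COL4A2 rose together in BXPC3. COL4A1 went from 1.26, 2.71, 2.04 and 0.347 CPM to 7.99, 7.69, 6.61 and 4.68 CPM (a log2 change of 2.13 ± 0.47, 4.38-fold, adjusted p = 0.0078), and no library of one group reached the other. COL4A2 had 27 counts over the 4 vehicle libraries and 105 over the treated ones, a ratio of 4.22 after scaling, with a counting interval of 2.74 to 6.7 at 95% (log2 2.07 ± 0.61, adjusted p = 0.0288). The COL4A2 call was lost without vehicle replicate 2 or 3 or AM-9747 replicate 2, 3 or 4 (highest adjusted p 0.084) and in the joint fit (0.0598). In MIAPACA2, where both chains were at their highest, COL4A1 was at log2 -0.19 ± 0.28 (adjusted p = 0.697) and COL4A2 at log2 -0.1 ± 0.17 (adjusted p = 0.735). In PSN1 both were at a mean of 1.97 CPM or less, with log2 2.16 ± 1.24 for COL4A1 (adjusted p = 0.28) and 2.61 ± 1.25 for COL4A2 (adjusted p = 0.2).

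COL4A5 and COL4A6 lay lower with AM-9747 in both lines that express them. COL4A5 was 258 ± 76.1 CPM in vehicle BXPC3 and 168 ± 8.9 with AM-9747 (log2 -0.58 ± 0.19, adjusted p = 0.047), with overlapping groups, since vehicle replicate 4 stood at 148 CPM. The COL4A5 call was lost in 7 of 8 fits that left out a library (the exception was vehicle replicate 4), under 2 other scalings, with a filter at a mean of 5 CPM and in the joint fit (highest adjusted p 0.271). COL4A6 in BXPC3 was at log2 -0.48 ± 0.18 (adjusted p = 0.0727). In PSN1 COL4A5 was at log2 -0.77 ± 0.37 (adjusted p = 0.201) and COL4A6 at log2 -0.79 ± 0.36 (adjusted p = 0.176). COL4A4, at 1.08 ± 0.343 CPM in vehicle PSN1, passed in no line.

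In type VI, COL6A2 passed in MIAPACA2, and COL6A1 and COL6A3 passed in PSN1. The test of a difference between the lines did not pass for COL6A2 (adjusted p = 0.791) or COL6A3 (adjusted p = 0.245). In PSN1 COL6A2 was at 2.25 ± 2.07 CPM in vehicle and 0.739 ± 0.178 with AM-9747. COL6A2 fell in MIAPACA2 from 225, 346, 341 and 342 CPM to 153, 137, 157 and 104 CPM (a log2 change of -1.14 ± 0.17, 2.21-fold lower, adjusted p = 0.00221), and its groups did not overlap. In the joint fit the COL6A2 call was lost (adjusted p = 0.193). Its partners there were at log2 -0.3 ± 0.19 for COL6A1 (adjusted p = 0.343) and 0.31 ± 0.12 for COL6A3 (adjusted p = 0.118). Per kilobase, COL6A1 was 1.27 to 1.72 times COL6A2 in vehicle MIAPACA2 and 1.68 to 3.32 times with AM-9747.

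In PSN1, COL6A1 fell from 2850, 6240, 4940 and 5920 CPM to 1280, 1760, 3080 and 2020 CPM, and COL6A3 rose from 36.7, 47.1, 22.9 and 34.7 CPM to 70, 64, 82.2 and 80.4 CPM. The COL6A1 groups overlapped, as AM-9747 replicate 3 lay above vehicle replicate 1, and the COL6A3 groups did not. The log2 fold change was -1.33 ± 0.35 for COL6A1 (adjusted p = 0.0352) and 1.03 ± 0.25 for COL6A3 (adjusted p = 0.0252). Vehicle replicate 1 had the lowest mitochondrial share of its group (17.4%) and the lowest COL6A1, and so did AM-9747 replicate 1 (7.98%). With that share as a covariate the COL6A1 change was log2 -0.8 (adjusted p = 0.0763) and without TMM scaling it was -0.99 (adjusted p = 0.0655). The COL6A1 call was also lost without any 1 of vehicle replicates 2, 3 and 4 and AM-9747 replicates 1, 2 and 4 (highest adjusted p 0.126), and that of COL6A3 without vehicle replicate 4 or any 1 AM-9747 replicate (highest 0.0755) and in the joint fit (0.0534). The test of a difference between the lines gave an adjusted p of 0.0504 for COL6A1, which misses the threshold.

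COL7A1, the collagen of anchoring fibrils, fell in PSN1, the line with the most of it. It stood at 1650, 2870, 2660 and 3330 CPM in vehicle and 569, 685, 1270 and 785 CPM with AM-9747, with every treated library below every vehicle library. The log2 fold change was -1.71 ± 0.33 (3.27-fold lower, adjusted p = 0.0109), and -1.27 (adjusted p = 0.0161) with the mitochondrial share as a covariate. Without AM-9747 replicate 2 the adjusted p of COL7A1 was 0.0554. In BXPC3 COL7A1 was 431 ± 48.4 CPM in vehicle and 296 ± 79.6 with AM-9747 (log2 -0.5 ± 0.2, adjusted p = 0.087), without overlap, and in MIAPACA2 it was at log2 0.08 ± 0.39 (adjusted p = 0.915). The test of a difference between the lines passed at an adjusted p of 0.0452, and was lost in 19 of 24 fits that left out 1 library (highest 0.102) and without TMM scaling (0.0501).

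**Figure D5:**
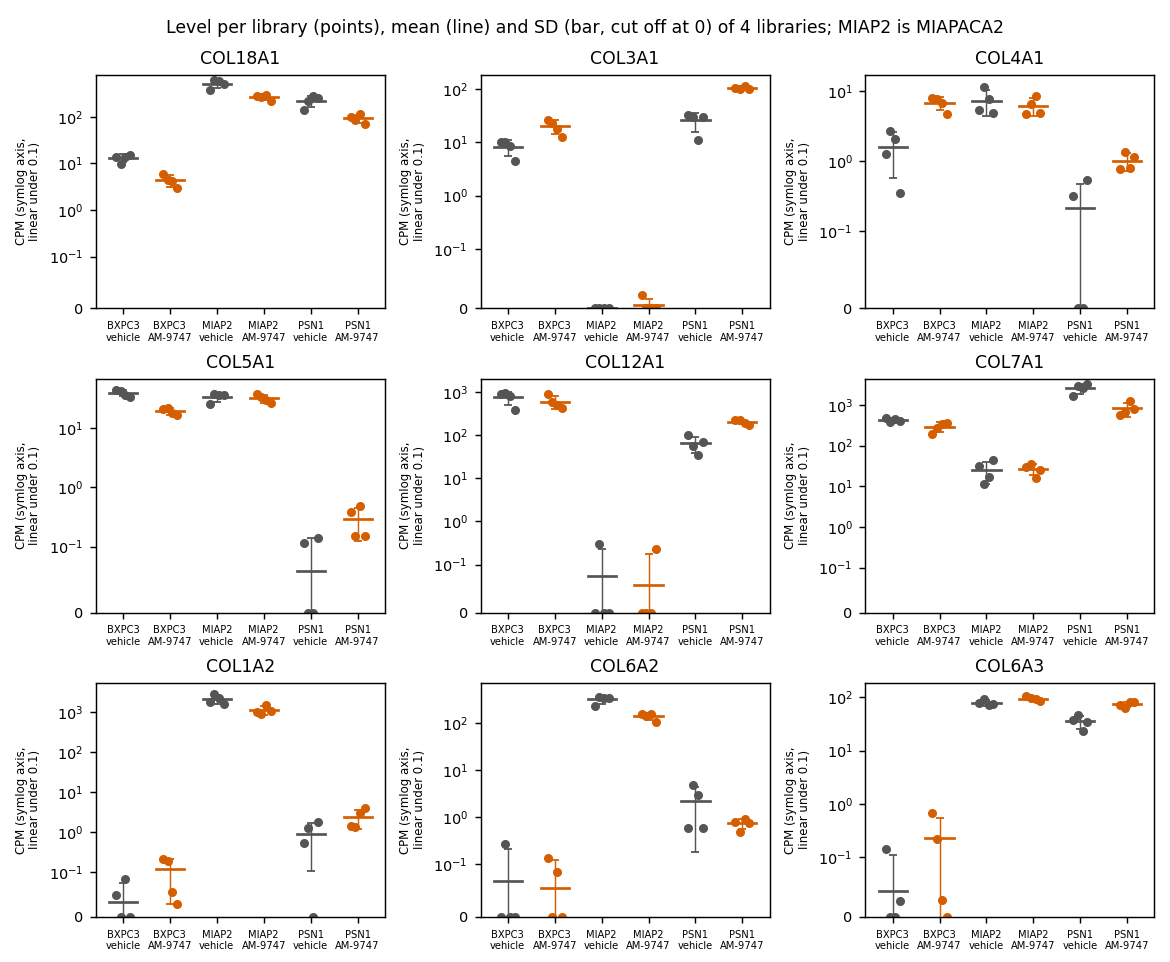
TMM-scaled CPM of 9 collagens in every library (points), with the mean (line) and SD (bar) of the 4 libraries of each group, on an axis that is linear under 0.1 and logarithmic above. COL18A1 is lower with AM-9747 in each line, COL3A1 is higher in BXPC3 and PSN1 (to 104 CPM in PSN1), and COL7A1 drops from 2630 to 826 CPM in PSN1.

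Among the FACIT collagens, COL12A1 rose in PSN1 from 100, 54.9, 35.3 and 68.6 CPM to 228, 221, 188 and 173 CPM (a log2 change of 1.62 ± 0.29, 3.08-fold, adjusted p = 0.00845). Its groups did not overlap, and in BXPC3, where it was far higher, it was at log2 -0.3 ± 0.29 (adjusted p = 0.475). COL22A1 rose in PSN1 from 1.72, 1.12, 1.44 and 2.71 CPM to 5.98, 6.83, 5.27 and 4.6 CPM (a log2 change of 1.66 ± 0.44, adjusted p = 0.0382). The COL22A1 call was lost without any 1 of vehicle replicates 2 and 4 and the 4 AM-9747 libraries (highest adjusted p 0.143), without the low-count filter (0.0855), with the mitochondrial covariate (0.101), in the joint fit (0.157) and by voom (0.0587).

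In MIAPACA2 3 FACIT genes of low level rose. COL16A1 went from 1.14, 0.249, 0.697 and 0.936 CPM to 2.14, 5.82, 2.55 and 2.34 CPM (a log2 change of 2.12 ± 0.51, adjusted p = 0.0215). COL20A1 went from 2.04, 0.942, 1.04 and 2.83 CPM to 6.44, 6.69, 3.76 and 5.56 CPM (a log2 change of 1.74 ± 0.39, adjusted p = 0.0146). COL9A3, a chain of type IX known from cartilage, had 9 counts over the vehicle libraries and 120 over the treated ones, a ratio of 11.9 with a counting interval of 6.07 to 26.7 (adjusted p = 0.0105). Each of these 3 had groups that did not overlap. The call was lost for COL16A1 without vehicle replicate 3 (0.0683) or AM-9747 replicate 2 (0.0816). It was lost for COL20A1 without AM-9747 replicate 1 (0.051) or 2 (0.0507) and in the joint fit (0.226), and for COL9A3 without AM-9747 replicate 1 (0.0543).

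In the other lines COL9A3 lay lower with AM-9747, at log2 -0.82 ± 0.37 in BXPC3 (adjusted p = 0.123) and -1.14 ± 0.39 in PSN1 (adjusted p = 0.0834), and the test of a difference between lines gave the smallest adjusted p of the collagens (0.000275). COL9A3 shares 45 exonic bases with TCFL5 on the other strand, and TCFL5 fell in BXPC3 and PSN1 and not past the threshold in MIAPACA2 (log2 -0.31 ± 0.11, adjusted p = 0.0878). COL16A1 also differed between lines (adjusted p = 0.00392), as it was at log2 -0.35 ± 0.14 in BXPC3 (adjusted p = 0.0852) and -0.32 ± 0.36 in PSN1 (adjusted p = 0.599). COL9A2, the partner of COL9A3, fell in BXPC3 from 9.89, 7.15, 9.98 and 13.6 CPM to 5.26, 6.13, 5.57 and 5.12 CPM (a log2 change of -0.85 ± 0.21, adjusted p = 0.0134), a call lost in the joint fit (0.29). COL20A1 in PSN1 lay higher without overlap (log2 3.55 ± 1.12, adjusted p = 0.0668) and did not pass.

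Of the remaining collagens, 2 passed. COL13A1, a membrane-spanning collagen, rose in MIAPACA2 from 24.6, 18.8, 18.9 and 21.1 CPM to 31.1, 29.1, 28 and 32.7 CPM (a log2 change of 0.57 ± 0.14, adjusted p = 0.0239). The COL13A1 call was lost without vehicle replicate 2 or 3 or AM-9747 replicate 1, 2 or 4 (highest adjusted p 0.0916) and in the joint fit (0.263). COL28A1, a minor collagen with von Willebrand factor A domains, fell in BXPC3 from 5.05, 6.05, 5.85 and 4.21 CPM to 2.23, 2.69, 3.02 and 3.69 CPM (a log2 change of -0.82 ± 0.21, adjusted p = 0.0155), a call lost in the joint fit (0.58). COL17A1, the leading collagen of BXPC3, was at log2 -0.2 ± 0.16 there (adjusted p = 0.393), -0.15 ± 0.14 in MIAPACA2 (adjusted p = 0.526) and 0.89 ± 0.32 in PSN1 (adjusted p = 0.0969). COL27A1 was at log2 0.31 ± 0.14, 0.47 ± 0.25 and -1.02 ± 0.31 in BXPC3, MIAPACA2 and PSN1 (adjusted p = 0.121, 0.237 and 0.0606).

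The test of whether the responses differ between lines used all 24 libraries. It gave all lines 1 spread, which is a limit. In their own fits libraries varied by 55.1% in PSN1, 32.1% in MIAPACA2 and 26.6% in BXPC3 (coefficient of variation). The test called 8 of 36 collagens tested (22.2%), where 12.1% of 22883 genes were called. They were COL9A3, COL16A1, COL5A1, COL28A1 (adjusted p = 0.0068), COL27A1 (adjusted p = 0.0163), COL17A1 (adjusted p = 0.022), COL1A2 (adjusted p = 0.0417) and COL7A1. For COL17A1 and COL27A1 no single line passed on its own, and PSN1 had the opposite sign to the other lines. Left-out libraries ended the call of COL17A1 (0.0555 without PSN1 AM-9747 replicate 3), of COL27A1 (0.0505 without PSN1 vehicle replicate 4) and, in 14 of 24 fits, of COL1A2 (highest 0.0824). The COL1A2 call was also lost by voom, and that of COL17A1 under RLE scaling (0.0566). COL9A3, COL16A1, COL5A1 and COL28A1 stayed past the threshold in all 30 alternatives. Outside BXPC3, COL28A1 was near 0, at 0.0333 CPM in vehicle and 0 with AM-9747 in MIAPACA2, and 0 and 0.373 CPM in PSN1. COL1A2 was low outside MIAPACA2, at 0.0337 and 0.123 CPM in BXPC3 and 0.919 and 2.47 CPM in PSN1. In those lines the tests of these 2 genes rest on low levels. Groups of low level also enter the tests of COL9A3, COL16A1 and COL5A1. In vehicle MIAPACA2 COL9A3 was at 0.0563 CPM and COL16A1 at 0.755 CPM. In PSN1 COL5A1 was at 0.0634 CPM in vehicle and 0.291 CPM with AM-9747.

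Of the 33 expressed collagens, 21 passed in at least 1 line, where 38.5% of the 18764 genes with a mean of 1 CPM or more in some group did. The other 12 passed in none, among them COL4A4, COL4A6, COL17A1 and COL27A1. COL8A2, a short-chain network collagen, was 20.1 ± 1.32 CPM in vehicle BXPC3 and 24.7 ± 2.7 with AM-9747 (log2 0.33 ± 0.12, adjusted p = 0.0541). COL8A1, of the same class, was 4.5 ± 1.16 and 5.11 ± 2.11 CPM there (adjusted p = 0.619). COL11A2, a fibrillar chain, was 17.2, 5.9, 9.49 and 21.3 CPM in vehicle MIAPACA2 and 31.1, 32.9, 15.3 and 25.8 CPM with AM-9747 (log2 0.99 ± 0.38, adjusted p = 0.113), with overlapping groups.

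Also in MIAPACA2, COL26A1 was 15.3 ± 1.64 CPM in vehicle and 16.4 ± 1.83 with AM-9747 (adjusted p = 0.519). COL10A1, the collagen of growth plate cartilage, was 0.898 ± 0.563 and 1.47 ± 0.813 CPM there (adjusted p = 0.38). In PSN1, COL5A3 was 151 ± 35.5 CPM in vehicle and 138 ± 37.5 with AM-9747 (log2 -0.17 ± 0.26, adjusted p = 0.712). COL14A1, a FACIT collagen, was 8.18 ± 2.15 and 12.1 ± 5.28 CPM (adjusted p = 0.347), and COL15A1, the other multiplexin, 1.07 ± 1.04 and 2.84 ± 0.564 CPM (adjusted p = 0.238). The values of each of these 3 overlapped between the groups.

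The genes that make, process, bind and cut collagen were counted in the same way, beside the shares of all genes that rose and fell, which were 13.2% (up) and 16% (down) for BXPC3, 6.73% (up) and 6.84% (down) for MIAPACA2, and 4.52% (up) and 6.17% (down) for PSN1. Of the biosynthesis enzymes and chaperones, 1 of 26 tested rose and 5 fell in BXPC3, 2 of 26 rose and 2 fell in MIAPACA2, and 2 of 27 rose and none fell in PSN1, with medians of -0.24, 0.08 and 0.25 on the log2 scale beside 0, 0 and 0.03 over all genes. SERPINH1, the collagen chaperone HSP47, rose in BXPC3 from 622 ± 104 to 1030 ± 136 CPM (a log2 change of 0.76 ± 0.17, adjusted p = 0.00772), while CRTAP, a part of the prolyl 3-hydroxylation complex, fell from 122 ± 4.8 to 76.8 ± 2.09 CPM (a log2 change of -0.63 ± 0.1, adjusted p = 0.00144). KLHL12, an adaptor for the large vesicles that export procollagen, fell in BXPC3 from 44.4 ± 7.73 to 22.1 ± 4.1 CPM (adjusted p = 0.00175). In MIAPACA2, P4HA2, a prolyl 4-hydroxylase subunit, rose from 27.5 ± 6.11 to 54.9 ± 9.7 CPM (adjusted p = 0.00396) and PLOD1, a lysyl hydroxylase, fell from 272 ± 36.5 to 149 ± 19.3 CPM (adjusted p = 0.00307). P3H2, a prolyl 3-hydroxylase, fell in MIAPACA2 (log2 -1.34 ± 0.36, adjusted p = 0.0346) and rose in PSN1 (log2 2.44 ± 0.31, adjusted p = 0.00189).

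Of the procollagen processing and crosslinking genes, 1 of 12 rose and 3 fell in BXPC3, 1 of 10 rose and 1 fell in MIAPACA2, and 1 of 11 rose and none fell in PSN1 (medians -0.03, 0.21 and 0.01), where 29.2%, 13.6% and 10.7% of all genes were called. LOXL4, a lysyl oxidase that crosslinks collagen, fell in BXPC3 from 286 ± 23.6 to 81.3 ± 6.26 CPM (a log2 change of -1.78 ± 0.11, adjusted p = 1.52e-05) and rose in PSN1 from 53.6 ± 13 to 113 ± 16.1 CPM (a log2 change of 1.05 ± 0.22, adjusted p = 0.017). LOXL2 fell in MIAPACA2 from 208 ± 49.6 to 121 ± 37.3 CPM (adjusted p = 0.0431). Of the receptors, 1 of 11 rose in BXPC3, 1 of 9 rose and 1 fell in MIAPACA2, and 1 of 12 rose and 2 fell in PSN1 (medians 0.12, -0.2 and -0.05), beside the same shares of all genes. ITGA10, an integrin chain that binds collagen, rose in BXPC3 (log2 1.59 ± 0.29, adjusted p = 0.00289) and MIAPACA2 (log2 1.31 ± 0.26, adjusted p = 0.0082). In PSN1 the collagen receptor kinase DDR2 rose from 2.07 ± 1.21 to 12 ± 2.19 CPM (adjusted p = 0.0099), and its relative DDR1 fell from 43.8 ± 5.62 to 17.1 ± 3.21 CPM (adjusted p = 0.00566).

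Of the proteases that cut collagen, 3 of 11 rose and 3 fell in BXPC3, 1 of 10 rose and 2 fell in MIAPACA2, and 2 of 12 rose and none fell in PSN1 (medians -0.13, 0.12 and 0.59), where 29.2%, 13.6% and 10.7% of all genes were called. MMP1, an interstitial collagenase, rose in BXPC3 from 30.4 ± 3.07 to 115 ± 26.4 CPM (a log2 change of 1.95 ± 0.17, adjusted p = 7.83e-05), and the gelatinase MMP9 rose from 10.6 ± 1.45 to 45.7 ± 8.6 CPM (a log2 change of 2.13 ± 0.18, adjusted p = 6.39e-05). MMP14, a membrane-bound collagenase, rose in MIAPACA2 from 11.4 ± 5.04 to 92.5 ± 27.5 CPM (a log2 change of 3.05 ± 0.36, adjusted p = 0.000807) and in PSN1 from 15.5 ± 2.88 to 38.8 ± 9.8 CPM (a log2 change of 1.29 ± 0.27, adjusted p = 0.016). Of the basement membrane partners of type IV and XVIII collagen, 2 of 18 rose and 4 fell in BXPC3, 4 of 15 rose and 2 fell in MIAPACA2, and 5 of 18 rose and 2 fell in PSN1 (medians -0.17, 0.35 and 0.66), beside the same shares of all genes. AGRN, a basement membrane proteoglycan, fell in BXPC3 from 1260 ± 138 to 543 ± 60 CPM (a log2 change of -1.18 ± 0.14, adjusted p = 0.000276) and in MIAPACA2 from 276 ± 59.2 to 135 ± 42.6 CPM (adjusted p = 0.0194). ITGA3 fell further in both lines (log2 -1.42 ± 0.16 and -1.21 ± 0.12). Among those that rose in MIAPACA2, LAMB2 went from 145 ± 38.2 to 363 ± 21.9 CPM (adjusted p = 0.00174) and LAMA2 from 21.1 ± 1.54 to 47.5 ± 5.01 CPM (adjusted p = 0.000536). SPARC, a collagen-binding matrix protein, rose in BXPC3 from 0.982 ± 0.285 to 3.67 ± 0.635 CPM (adjusted p = 0.00057) and in PSN1 from 6.16 ± 4.52 to 62.4 ± 28.6 CPM (a log2 change of 3.31 ± 0.57, adjusted p = 0.00713).

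Markers of other cell types and states moved in some of the same groups. Of the 9 fibroblast and stellate cell markers, 5 were tested in BXPC3, where PDGFRA (1.27 to 3.23 CPM), LUM (2.87 to 5.6 CPM) and THY1 (0.155 to 0.895 CPM) rose and FBLN1 fell from 144 to 75.3 CPM. The list summed to 151 to 178 CPM in the vehicle libraries of BXPC3 and 95.7 to 114 CPM with AM-9747. In PSN1 none of 6 tested passed, while the sum was 15.3 to 46.3 CPM in vehicle and 64.9 to 80.2 CPM with AM-9747, without overlap, with PDGFRA at 19.8 and 40.4 CPM. In MIAPACA2 none of 3 passed, with sums of 37.7 to 53.2 and 31 to 47.3 CPM.

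Of the 6 mesenchymal markers, 3 of 6 tested rose in BXPC3 (VIM from 7.88 to 16.1 CPM), 2 of 5 rose in PSN1 (SNAI1 from 10.8 to 29 CPM) and none of 5 passed in MIAPACA2. Of all genes, 13.2% rose in BXPC3, 4.52% rose in PSN1 and 13.6% passed in MIAPACA2. The mesenchymal sum was 91.9 to 129 CPM in vehicle BXPC3 and 123 to 148 with AM-9747, 984 to 3680 and 1870 to 2770 CPM in PSN1, and 8030 to 9300 and 5800 to 7410 CPM in MIAPACA2. Of the 6 epithelial markers, KRT19 fell in BXPC3 (1780 to 1010 CPM), EPCAM rose in MIAPACA2 (0.0427 to 0.774 CPM), and none of 6 passed in PSN1. Of all genes, 16% fell in BXPC3, 6.73% rose in MIAPACA2 and 10.7% passed in PSN1. The epithelial sum was 7630 to 12600 CPM in vehicle BXPC3 and 5340 to 7700 with AM-9747, 1240 to 1530 and 1120 to 1330 CPM in MIAPACA2, and 1700 to 2280 and 1540 to 1840 CPM in PSN1.

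Of the 4 endothelial markers, CDH5 (11.6 to 24.5 CPM) and VWF (1.64 to 5.02 CPM) rose and PECAM1 fell (4.77 to 2.32 CPM) in BXPC3, PECAM1 fell in PSN1 (36.2 to 21 CPM), and none was tested in MIAPACA2. Of all genes, 13.2% rose and 16% fell in BXPC3, and 6.17% fell in PSN1. The endothelial sum was 15.7 to 21.3 CPM in vehicle BXPC3 and 30.1 to 34.6 with AM-9747, 43.7 to 57.9 and 54.6 to 61.2 CPM in PSN1, and 0.595 CPM or less in each MIAPACA2 library. Of the 4 leukocyte markers, CD68 fell in BXPC3 (33.2 to 12.4 CPM) and no other call was made, and CD3E had no count in MIAPACA2 or PSN1. The leukocyte sum was 31.5 to 38.8 and 5.53 to 21.6 CPM in BXPC3, 4.11 to 13.1 and 5.58 to 24.3 CPM in MIAPACA2, and 6.9 to 24.8 and 6.67 to 46.4 CPM in PSN1. The part of these markers in the collagen responses was not tested.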

How the data were processed

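Per the labels, the libraries were strand-specific and made from poly(A) RNA (NEBNext Ultra II Directional). Tools named by the submitters' processing notes are fastp 0.19.8, HISAT2 2.2.0, R 4.0.2 and DESeq2 1.34.0, with the build GRCh38. Which counter was run, with what strand setting and annotation, is not given in the sources used here. Values are gene counts as deposited by the authors, without normalization. All 44 collagen rows matched GENCODE 29 by stable ID, which gave exon lengths and overlaps.

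Levels are TMM-scaled CPM. Responses were tested in each line alone with edgeR 4.0.16 (quasi-likelihood, filterByExpr, limma 3.58.1, R 4.3.3, data.table version 1.17.8), since libraries varied by 26.6% (BXPC3), 32.1% (MIAPACA2) and 55.1% (PSN1), as edgeR's biological coefficient of variation. Vehicle contrasts used 1 fit of 12 libraries, and differences of response 1 fit of 24. P-values were adjusted by Benjamini-Hochberg over all genes tested, with 0.05 as the threshold. The SE is the size of the log2 fold change divided by the square root of its F statistic. The procedure was tested on simulated data. No 2 libraries of a group agreed within sampling noise.

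The members and lists were chosen with earlier results of these data known. Every expressed collagen was accounted for and those that passed were described in full. Of other lists, examples came from the largest changes past the threshold at a mean of 1 CPM or more, up to 3 each way per line, and THY1 and EPCAM, which lie below that level, were named after their values were seen. Alternatives were other scalings, filters, DESeq2 1.42.0, voom, a joint fit, a replicate block, each library left out, and a mitochondrial covariate added after the data were seen.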

Additional observations from a re-analysis of the deposited data

Results flagged for a closer look

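Among 130 groups of 4 libraries of expressed collagens, 9 (6.92%) held 1 library whose gap to the nearest other, divided by the range of the group, was above Dixon's 95% critical value for 4 samples, where chance gives about 1 in 20. In PSN1 with AM-9747, replicate 3 was the highest for COL11A2 (4.64 CPM against 1.3 to 1.61 in the others), COL13A1 (122 CPM against 98.6 to 99.6) and COL5A3 (194 CPM against 117 to 122). In vehicle PSN1, replicate 1 was the lowest for COL17A1 (13.7 CPM against 24.1 to 26) and replicate 3 for COL3A1 (10.8 CPM against 29.7 to 33.1). In MIAPACA2, AM-9747 replicate 2 was the highest for COL16A1 (5.82 CPM against 2.14 to 2.55) and vehicle replicate 1 the lowest for COL6A2 (225 CPM against 341 to 346). In BXPC3, COL9A3 was highest in vehicle replicate 4 (10.8 CPM against 3.7 to 4.76) and lowest in AM-9747 replicate 1 (2.29 CPM against 3.48 to 3.67).

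The response to AM-9747 differed between the 3 lines for 8 of 36 collagens tested (22.2%), by the F test on all 24 libraries (edgeR). The same test called 12.1% of 22883 genes. The adjusted p was 0.000275 for COL9A3, 0.00392 for COL16A1, 0.00537 for COL5A1, 0.0068 for COL28A1, 0.0163 for COL27A1, 0.022 for COL17A1, 0.0417 for COL1A2 and 0.0452 for COL7A1. The dose in MIAPACA2 (150 nM) was not that of the other lines, so line and dose cannot be told apart there. Leaving out 1 library ended the call in 14 of 24 fits for COL1A2 and 19 for COL7A1. It did so in 1 fit each for COL17A1 and COL27A1. COL28A1 had a mean of 0.373 CPM or less in each group outside BXPC3, and COL5A1 of 0.291 CPM or less in PSN1. COL1A2 had a mean of 0.123 CPM or less in BXPC3, and COL9A3 had 9 counts over the vehicle MIAPACA2 libraries.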

How the results depend on the processing

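The 33 expressed collagens became 32 with plain CPM, 36 at 0.5 CPM or more and 30 at 5 CPM or more. In BXPC3 the 11 calls became 7 with a filter at a mean of 5 CPM, 17 with the mitochondrial covariate and 4 in the joint fit. In MIAPACA2 the 7 calls became 13 with the covariate and 3 in the joint fit. Over all genes, calls went from 29.2% to 33.3%, 44.8% and 10.5% under those settings in BXPC3, and from 13.6% to 33.6% and 5.03% in MIAPACA2. In PSN1 the 7 calls became 13 in the joint fit and 13 by voom, and the 8 differences of response became 15 by voom, where calls over all genes went from 10.7% to 25.2% and 14%, and from 12.1% to 17.9%. With each library left out in turn, the counts ran from 8 to 13 in BXPC3, 3 to 9 in MIAPACA2, 2 to 10 in PSN1 and 6 to 13 for the difference of response. Over all genes the calls ran from 20.5% to 37.3%, 6.2% to 17.3%, 2.77% to 23% and 8.42% to 25.7% in these fits. The vehicle contrasts ran from 26 to 29 (BXPC3 against MIAPACA2), 27 to 29 (BXPC3 against PSN1) and 25 to 28 (MIAPACA2 against PSN1). Over all genes they ran from 39.9% to 45.4%, 52.2% to 64.4% and 42.9% to 56%. In MIAPACA2 the count was 4 without vehicle replicate 3 and 3 without AM-9747 replicate 1 or 2. Over all genes 6.71%, 6.2% and 7.06% were called in those fits. In PSN1 the count was 3 without vehicle replicate 4, 4 without AM-9747 replicate 1, 2 without AM-9747 replicate 2 and 3 without AM-9747 replicate 4. Over all genes 3.37%, 5.05%, 2.77% and 3.61% were called in those fits. The difference count was 13 without PSN1 vehicle replicate 1, where 25.7% of all genes were called. The causes were not tested. Among the alternatives run, no called collagen changed direction. COL18A1, COL3A1, COL4A1 and COL5A1 in BXPC3, COL18A1 in MIAPACA2, and COL12A1 and COL3A1 in PSN1 passed in all alternatives that tested them.

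Replicate numbers recur across groups, but same-numbered libraries deviated together only in part (correlations from -0.26 to 0.7 in BXPC3, -0.55 to 0.52 in MIAPACA2 and -0.27 to 0.7 in PSN1), and 2, 1 and 2 of 4 vehicle libraries correlated best with their own number. The libraries share only a number. With the replicate block, 14, 6 and 10 collagens were called in BXPC3, MIAPACA2 and PSN1 (40.4%, 9.4% and 18.3% of all genes), 27, 26 and 26 in the vehicle contrasts (45.3%, 56.8% and 47.6%) and 12 for the difference (18.9%). The block took COL16A1 in MIAPACA2 to an adjusted p of 0.0741 and COL22A1 in PSN1 to 0.0504. Depth limits COL4A2 in BXPC3 and COL9A3 in MIAPACA2, which rest on 27 and 9 vehicle counts.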
